A study of Mus musculus with 6 samples.

Results

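After repeated cocaine, 10 feedback inhibitors of ERK signalling were followed in the nucleus accumbens, the ventral part of the striatum that takes part in reward. They are 5 dual-specificity phosphatases (Dusp1, Dusp4, Dusp5, Dusp6 and Dusp14), 3 Sprouty genes (Spry1, Spry2 and Spry4) and 2 Spred genes (Spred1 and Spred2). The genes were chosen by name, with earlier results of these data known. Each matched 1 record of the deposited table, so 10 of its 21540 gene records are described. All 10 were marked as tested and all reached 1 FPKM (fragment counts scaled to transcript length and library total), while 6 reached 5 FPKM. Mice of the C57BL/6 strain were injected intraperitoneally once a day, 7 times, with 20 mg/kg cocaine or with saline, and the labels place the tissue at 4 h of withdrawal. There were 3 libraries of total RNA per group by the labels; age is not among the labels used here, and they do not say whether a library is 1 animal or pooled tissue. The deposited table gives 1 value per group and no value per library, so neither a spread between replicates nor an overlap of the groups can be shown, and the depth of the libraries is unknown.

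ERK, the last kinase of the Ras, Raf and MEK cascade, is activated by growth factors, by calcium entry and, in spiny neurons of the striatum, by dopamine and glutamate together. Active ERK drives the transcription of its own inhibitors, so the mRNAs of many of these genes are used as readouts of recent pathway activity. Dual-specificity phosphatases remove the activating phosphates of MAP kinases, whereas Sprouty and Spred proteins act further up, between the receptor and Raf. In rodents cocaine is known to activate ERK in the accumbens.

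After cocaine, 1 of the 10 genes rose, 0 fell and 9 did not pass the authors' deposited test at q < 0.05. The gene that rose was Spred1, from 31.8 to 34.6 FPKM, a fold of 1.09 in the authors' deposited table (log2 fold change 0.12, q = 0.0382). Across all 14959 tested records 1.23% were called, 0.521% higher and 0.709% lower. Without adjustment, 4 of the 10 genes had a p under 0.05 in the authors' deposited table, with Spred1 higher and Dusp5, Dusp6 and Spry2 lower. The share of all tested records past that mark was 5.76%, with 2.02% higher and 3.74% lower. Deposited log2 fold changes were below 0 for 8 of the 10 genes, and for 59.3% of the 12833 tested genes of at least 1 FPKM. The median over the 10 genes was -0.13 and that over all those genes was -0.02. These counts and medians describe the deposited comparison and are no test of the list.

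The levels spanned an 18.5-fold range in the saline group. Spred1 was highest, Spry2, Dusp14 and Spred2 followed, Dusp1 and Dusp6 lay near the middle of all tested records, and Spry1, Dusp5, Dusp4 and Spry4 were low. The order of the 10 genes was the same in both groups. Without values per library it cannot be said which neighbours in this order differ beyond their spread. Spred1 exceeded 81.0% of tested records in the saline group, and Spry4 exceeded 19.8%.

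**Figure D1:**
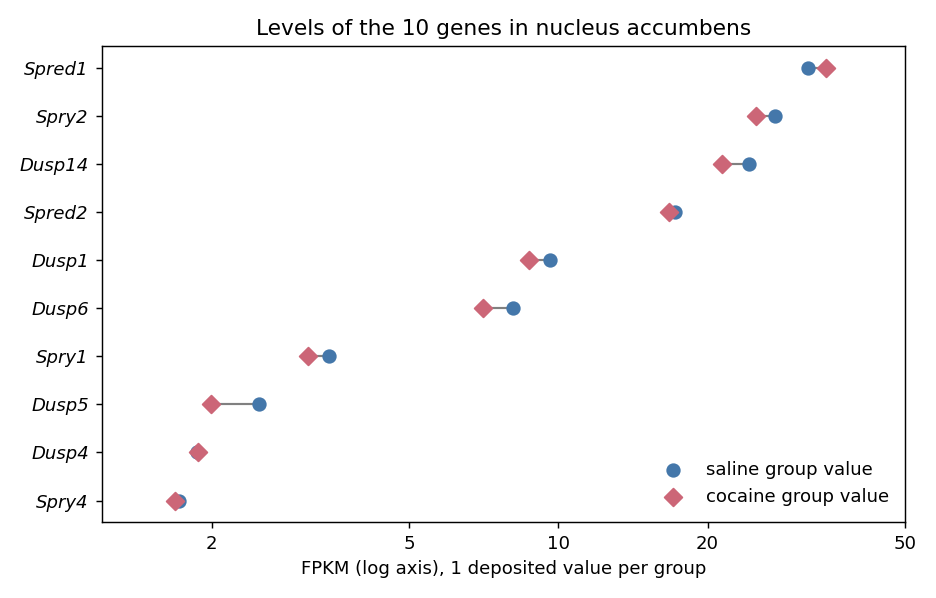
Deposited FPKM of the 10 genes on a log axis, with a circle for the saline and a diamond for the cocaine group value and a grey line joining them; there is 1 value per group, so no error bar is drawn. Spred1 is the highest gene and its cocaine value lies to the right of saline, whereas Dusp5 shows the longest line to the left, from 2.49 to 1.99 FPKM.

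Among the phosphatases, Dusp6 is a cytoplasmic enzyme selective for ERK and a widely used readout of ERK output. Its deposited group values were 8.10 FPKM after saline and 7.05 FPKM after cocaine. The authors' deposited table gives a log2 fold change of -0.20 (p = 0.00681, q = 0.360), which did not pass. Dusp5, the nuclear phosphatase selective for ERK, stood at 2.49 and 1.99 FPKM in the saline and cocaine groups. In the authors' deposited table its log2 fold change, -0.32, was the furthest from 0 among the 10 genes, but it did not pass either (p = 0.0243, q = 0.812). With a pseudocount of 1 FPKM the log2 fold change of Dusp5 was -0.22.

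Dusp1 and Dusp4 are nuclear and inducible, and they also act on p38 and JNK. Dusp1, an immediate-early gene, had deposited group values of 9.60 FPKM after saline and 8.75 FPKM after cocaine. By the authors' deposited test it did not pass (log2 fold change -0.13, p = 0.228). Dusp4 had nearly equal group values, 1.87 FPKM after saline and 1.88 FPKM after cocaine. Its log2 fold change was 0.01 in the authors' deposited table (p = 0.939). Dusp14 is a small atypical phosphatase without the domain that docks MAP kinases in the typical enzymes. It was the most abundant of the 5 phosphatases, at 24.2 FPKM after saline and 21.4 FPKM after cocaine, and did not pass the authors' deposited test (log2 fold change -0.18, p = 0.0802). Summed over the 5 phosphatases, the deposited group values were 46.3 FPKM after saline and 41.1 FPKM after cocaine. Dusp14 alone gave 24.2 and 21.4 FPKM of these sums. Of the 5 phosphatases 4 were lower, beside 59.3% of all tested genes of at least 1 FPKM.

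The Sprouty genes encode membrane-associated inhibitors that are induced by growth factors and limit Ras and Raf activation. Spry2 was the main Sprouty transcript, at 27.3 FPKM after saline and 25.1 FPKM after cocaine, and in the saline group its level was 7.94 times that of Spry1 and 15.9 times that of Spry4. Its log2 fold change in the authors' deposited table was -0.13 (p = 0.00759, q = 0.387), which did not pass. The authors' deposited table lists Spry1 with 3.44 FPKM after saline and 3.13 FPKM after cocaine (log2 fold change -0.14, p = 0.473). Spry4 in the authors' deposited table had 1.72 FPKM after saline and 1.69 FPKM after cocaine (log2 fold change -0.02, p = 0.850). All 3 Sprouty genes had the lower group value after cocaine, beside 59.3% of all tested genes of at least 1 FPKM. The log2 fold change of Spry4 equalled the median over all those genes, -0.02, to 2 decimals. At q < 0.05, 0 of the Sprouty genes passed.

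Spred proteins bind neurofibromin, the Ras GTPase-activating protein encoded by Nf1, and bring it to the membrane where it switches Ras off. Spred1 and Spred2 did not share a direction. Spred1 rose, by 8.64% of its saline value, and its q of 0.0382 in the authors' deposited table lay close to the threshold. The deposited q-values are larger than a Benjamini-Hochberg adjustment over the 14959 tested records gives, by which the adjusted p of Spred1 is 0.0305 and 199 rather than 184 records pass. For Spred2 the authors' deposited table gives 17.2 FPKM after saline and 16.7 FPKM after cocaine (log2 fold change -0.04, p = 0.538), and the difference between the 2 genes' changes was not tested. The level of Spred1 was 1.85 times that of Spred2 in the saline group and 2.06 times in the cocaine group. Nf1, named for its partnership with Spred1 after the values had been seen, had 17.8 FPKM after saline and 17.6 FPKM after cocaine (log2 fold change -0.02, p = 0.770 by the authors' deposited test).

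Changes of this size were set beside those of genes of near-equal level, taken as all tested genes within 1.2-fold of the same mean FPKM. For Spred1 these were 989 genes, of which 95.6% had a lower deposited log2 fold change, and their middle 90% ran from -0.15 to 0.11. Dusp14 lay below the middle 90% of its 1231 genes, which ran from -0.17 to 0.13, although the authors' deposited test did not call it. The other 8 genes lay inside. Dusp6 was close to the lower edge, with 5.70% of its 1299 genes below it. For Dusp5 the middle 90% was wider, from -0.39 to 0.24, and 7.46% of its 751 genes lay below it. This places each gene within the deposited fold changes and does not measure the spread between libraries.

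**Figure D2:**
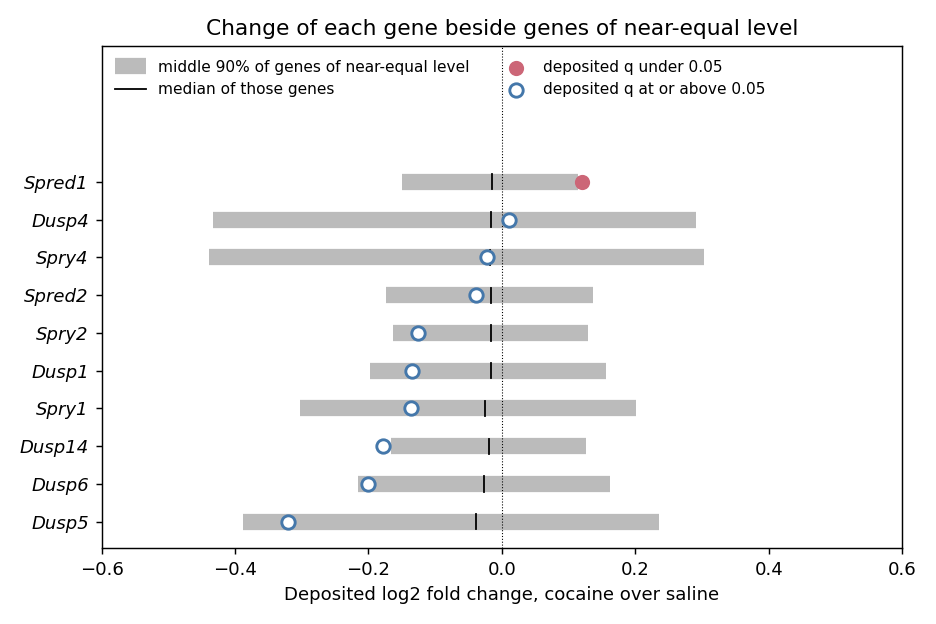
Deposited log2 fold change, cocaine over saline, of each gene (filled circle for q under 0.05, open circles otherwise) over a grey bar for the middle 90% of tested genes within 1.2-fold of its mean FPKM and a black tick for their median. Spred1 lies just above its bar and Dusp14 just below, and the other 8 genes lie within theirs.

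The promoters of 8 of the 10 genes were found by symbol in the RefSeq table of build GRCm38.p6, and those of Dusp4 and Spry4 were not among them. The 250 bases upstream of the annotated start were searched on both strands for sites of factors that act downstream of ERK and cyclic AMP. These were the cyclic AMP response element TGACGTCA, its core TGACG (contained in the former), the AP-1 site TGANTCA, the EGR site GCGNGGGCG, the ETS site CCGGAAG and the CArG box bound by serum response factor. The windows of Spred1, the only gene called, of Dusp5, with the log2 fold change furthest from 0, and of Dusp1, which holds the full cyclic AMP element, are shown 5′ to 3′ on the gene's strand, with matches in capitals. They lie at chr2:117120821-117121070, plus strand (Spred1), at chr19:53528895-53529144, plus strand (Dusp5) and at chr17:26508473-26508722, minus strand (Dusp1).
Spred1: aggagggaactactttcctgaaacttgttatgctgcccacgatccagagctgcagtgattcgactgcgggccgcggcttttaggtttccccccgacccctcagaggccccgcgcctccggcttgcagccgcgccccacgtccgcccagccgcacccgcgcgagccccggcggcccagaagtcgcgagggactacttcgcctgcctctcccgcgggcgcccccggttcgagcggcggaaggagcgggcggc
Dusp5: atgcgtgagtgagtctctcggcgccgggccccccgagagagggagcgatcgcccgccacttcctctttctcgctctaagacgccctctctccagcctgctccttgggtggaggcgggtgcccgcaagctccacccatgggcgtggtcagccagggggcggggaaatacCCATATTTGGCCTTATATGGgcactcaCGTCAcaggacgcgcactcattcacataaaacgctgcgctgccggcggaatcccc
Dusp1: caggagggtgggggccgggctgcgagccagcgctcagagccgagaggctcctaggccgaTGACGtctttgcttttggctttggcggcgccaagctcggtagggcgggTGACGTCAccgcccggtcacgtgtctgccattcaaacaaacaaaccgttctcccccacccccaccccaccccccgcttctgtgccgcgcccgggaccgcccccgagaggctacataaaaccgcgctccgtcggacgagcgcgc

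The Dusp5 window holds 2 adjacent CArG boxes, CCATATTTGG and CCTTATATGG, which begin 82 and 72 bases before the start, and the core TGACG on the opposite strand. The Dusp1 window holds the full element TGACGTCA, which begins 143 bases before the start, and a further copy of the core TGACG. In the Spred1 window 0 of the motifs searched were matched, which says only that these letters are not in it. Among the 8 genes, 1 window held a CArG box and 1 the full cyclic AMP element, against 1.47% and 1.55% of 32851 promoter windows of the same length. The core TGACG was in 3 of the 8 (Dusp1, Dusp5 and Spred2) and in 17.8% of all windows. The AP-1, EGR and ETS sites were in 0 of the 8, and in 6.75%, 4.70% and 6.91% of all windows. The GC content of the 8 windows ran from 56% (Spred2) to 70.8% (Spred1), above the median of 52.4% over all windows. The shares over all windows were not matched for GC content, so they do not show whether a motif is enriched in these genes. A match is a description of the sequence, and no binding was measured here.

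The rise of Spred1 stands beside a property of its transcript. By the longest transcript in GENCODE mouse release M21, Spred1 is the longest of the 10 genes (6016 bases) and the one with the lowest GC content (41.2%), and only 9.32% of tested genes of at least 1 FPKM had a lower GC content. Genes with GC-poor transcripts had higher deposited fold changes in this comparison. The median log2 fold change was 0.04 in the 1258 genes of lowest GC content and -0.07 in the 1257 genes of highest. Centring on the median of all tested genes of at least 1 FPKM gave 0.14 for Spred1 and -0.11 for the median over the 10 genes. Subtracting the median of genes of like GC content and length also removes that common offset. When this was done, Spred1 went from 0.12 to 0.078 on the log2 scale, and the median over the 10 genes from -0.13 to -0.084. Dusp6 (-0.17), Dusp5 (-0.26) and Spry2 (-0.10) stayed on the same side of 0 under that subtraction, as did the other genes of the 10. What part GC content or length has in the Spred1 call was not tested.

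**Figure D3:**
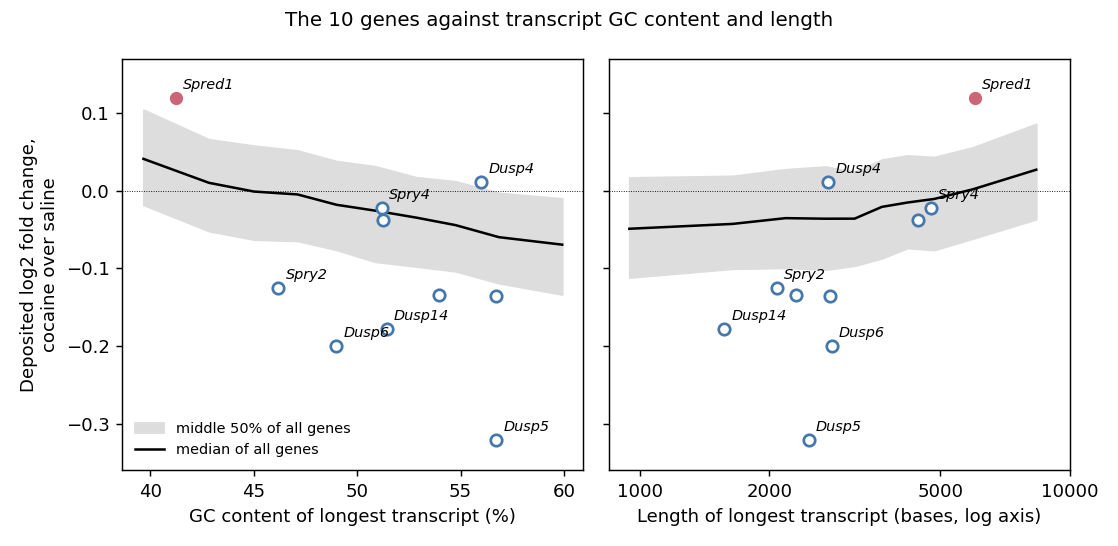
Deposited log2 fold change, cocaine over saline, against the GC content (left, percent) and the length (right, bases, log axis) of each gene's longest transcript; the line is the median and the band the middle 50% of all tested genes in 10 equal bins, and circles are the 10 genes, filled for q under 0.05. Spred1 sits towards the GC-poor and long ends, at 41.2% and 6016 bases, above the line and the band in both panels.

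The rest of the pathway and genes near it were described with 11 other gene lists. Among them are lists of atypical phosphatases and of JNK and p38 kinases, which reach beyond the ERK cascade. The 11 lists hold 132 tested genes of at least 1 FPKM. Of these 1 rose, 6 fell and 125 did not pass the authors' deposited test. That is 5.30% called, beside 1.23% of all tested records (0.521% higher, 0.709% lower). Of the 6 falls 5 were immediate-early genes. In the lists without a call, unadjusted p-values under 0.05 in the authors' deposited table were held by 3 growth factor receptors (2 higher, 1 lower) and by 0 genes of the others. At that mark 2.02% of all tested records were higher and 3.74% lower. The median deposited log2 fold change over the 132 genes was -0.02, the same as over all genes to 2 decimals.

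Upstream of the feedback genes, 0 of 16 growth factor receptors passed. The one with the smallest p was Ntrk2, the receptor of brain-derived neurotrophic factor, at 75.3 and 79.0 FPKM (p = 0.000625, q = 0.0589 in the authors' deposited table). Of 14 genes listed as growth factor ligands 0 passed. The 14 include Fgf12, Fgf13 and Fgf14, which encode intracellular FGF homologous factors and not secreted ligands. Pdgfb, a platelet-derived growth factor chain, had the smallest p of the 14 (4.45 FPKM after saline, 4.01 FPKM after cocaine, p = 0.112 by the authors' deposited test). Among 15 Ras activators and adaptors Shc3 rose, a neuronal adaptor that links receptors to Grb2 and Ras. Its deposited group values were 25.3 FPKM after saline and 29.4 FPKM after cocaine, with a log2 fold change of 0.22 (q = 0.0448), which was 0.29 after the subtraction for GC content and length. Ras, Raf, MEK and ERK kinases gave 0 calls among 12, and Map2k1, which encodes MEK1, had the smallest p (190.3 FPKM after saline, 182.3 FPKM after cocaine, p = 0.0566 by the authors' deposited test). Of the other inhibitors of Ras and receptor signalling 0 of 10 passed, and Rasa3, a Ras GTPase-activating protein, had the smallest p (23.6 FPKM after saline, 18.9 FPKM after cocaine, p = 0.0726 by the authors' deposited test).

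The other phosphatases did not pass either. Of 7 further MAP kinase phosphatases, 0 passed the authors' deposited test and the median was 0.01. Ptpn5, the striatum-enriched tyrosine phosphatase that dephosphorylates ERK, had the smallest p (0.226), with deposited group values of 254 FPKM after saline and 261 FPKM after cocaine. The level of Ptpn5 alone was thus above the 127.8 and 122.3 FPKM of the 10 feedback genes summed. Of 10 further atypical dual-specificity phosphatases 0 passed, with a median of -0.04; Dusp18 had the smallest p (8.87 FPKM after saline, 8.24 FPKM after cocaine, p = 0.0543 by the authors' deposited test).

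Downstream of ERK, the transcription factor Srf, which binds the CArG box with ETS partners, fell from 18.2 to 16.5 FPKM in the authors' deposited table (log2 fold change -0.14, q = 0.0262; -0.08 after the subtraction for GC content and length). It was the only call among 11 ERK-responsive transcription factors, whose median was 0.05. Kinases activated by ERK gave 0 calls among 8, and Mknk2 had the smallest p (13.8 FPKM after saline, 13.0 FPKM after cocaine, p = 0.263 by the authors' deposited test). Of 19 immediate-early genes that respond to ERK, 5 fell, 0 rose and 14 did not pass, while 0.709% of all tested records were called lower. Their median deposited log2 fold change was -0.17, and -0.11 after the subtraction for GC content and length. This list, too, was chosen with earlier results of these data known. Nr4a1 (-0.49), Junb (-0.35), Egr4 (-0.27) and Egr1 (-0.24) were among the 5 in the authors' deposited table.

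**Figure D4:**
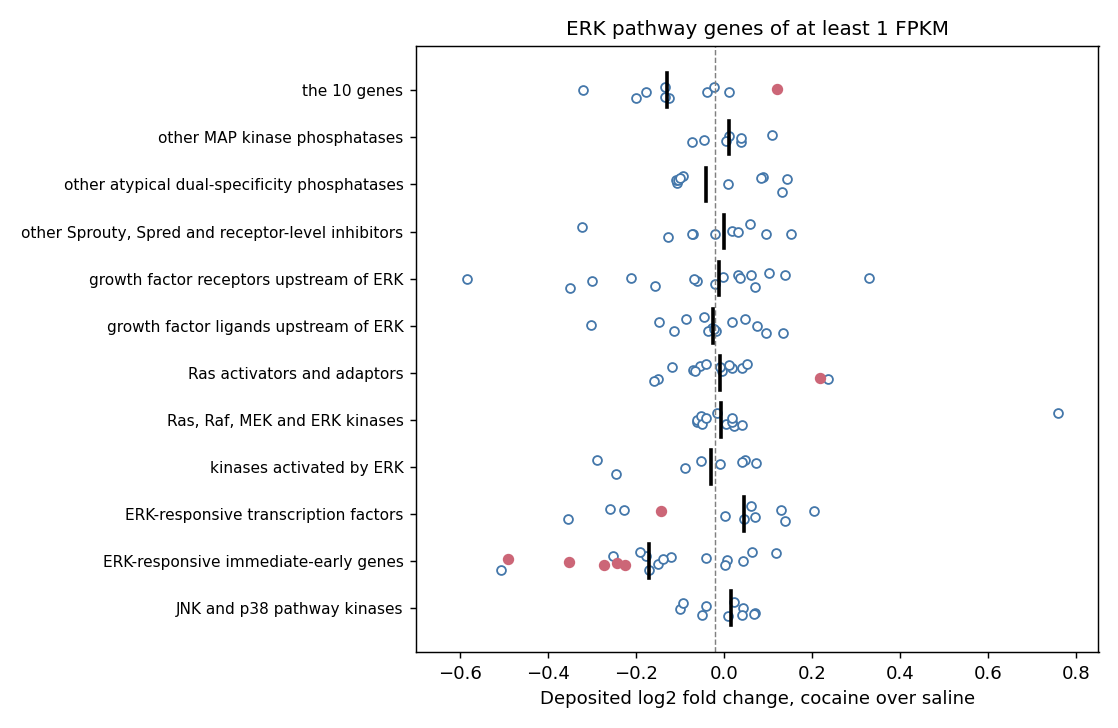
Deposited log2 fold change, cocaine over saline, of the 10 genes and of 11 other lists of the ERK pathway and genes near it, JNK and p38 kinases included. There is 1 circle per gene of at least 1 FPKM (filled for q under 0.05). A black bar marks each list's median and a dashed line the median of all tested genes at -0.02. The medians of the 10 genes (-0.13) and of the immediate-early genes (-0.17) lie furthest left of the dashed line. Those of the other atypical phosphatases (-0.04), the kinases activated by ERK (-0.03) and the genes listed as growth factor ligands (-0.03) lie left of it by less. Spred1 and Shc3 are the filled circles on the right.

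In bulk tissue fewer cells of a type and less RNA per cell cannot be told apart. All 14 spiny neuron markers were measured, with summed deposited values of 4033 FPKM after saline and 3934 FPKM after cocaine, and 0 passed the authors' deposited test (3 lower at an unadjusted p under 0.05). Of all tested records 0.709% were called lower, and 3.74% were lower and 2.02% higher at that unadjusted mark. Of the spiny neuron markers 12 of 14 were below 0, beside 59.3% of all genes. Their median was -0.03, beside -0.02 over all genes. It was -0.009 after centring on the median of all genes, and 0.006 after the subtraction for GC content and length. Of 14 endothelial and mural markers 1 fell by the authors' deposited test, the tight junction gene Cldn5, and 13 did not pass. Their deposited log2 fold changes were below 0 for 14 of 14, beside the 59.3% of all genes, and their summed values were 86.5 and 74.8 FPKM. Their deposited median was -0.26, which became -0.14 when 1 FPKM was added to each value. Of 5 neuroblast markers 4 were below 0 (summed 172 and 163 FPKM), and Sox11 and Cd24a fell by the authors' deposited test. Tubb3, which neurons at large express, alone gave 153.0 FPKM after saline and 147.6 FPKM after cocaine of these sums. Dcx was the neuroblast marker above 0 (log2 fold change 0.03, p = 0.787 by the authors' deposited test). Tubb3 and Dcx were named after their values were seen. Of 5 cortical glutamatergic markers 4 were below 0 (summed 68.4 and 62.6 FPKM), and Slc17a7 fell by the same test. Of 4 choroid plexus and ependymal markers 3 were below 0. Ttr, which choroid plexus makes abundantly, rose in the deposited table from 0.67 to 10.8 FPKM (log2 fold change 4.02). It reached the minimum of 1 FPKM only in the cocaine group, and it took the summed values of the 4 markers from 10.5 to 19.6 FPKM. Astrocyte, oligodendrocyte, oligodendrocyte precursor and microglia markers gave 0 calls by the authors' deposited test, with unadjusted p-values under 0.05 for 4 higher and 1 lower marker, and medians between -0.02 and 0.06. The mitochondrially encoded share of summed FPKM over tested records was 6.83% after saline and 8.25% after cocaine, while the summed FPKM of all other tested records differed by -0.00056 on the log2 scale, cocaine over saline. No marker was at 0 in both groups, and the part of these cell types and of the mitochondrial share in the values of the 10 genes was not tested.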

How the data were processed

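RNA sequencing of 3 cocaine and 3 saline libraries was summarised by the authors in 1 table, in the layout of a Cuffdiff gene table. TopHat2 2.0.6, Cufflinks 2.0.2 and build NCBIM37 are named per the submitters' processing notes, with settings not given in the sources used here. The deposited group values were treated as FPKM, a unit the file does not name. The log2 fold change (cocaine over saline), p-value and q-value are the authors' own and were used as deposited. Recomputed log2 fold changes lay within 1.28e-05 of the deposited ones. What spread the authors' test used is not given, and spread between libraries may be technical.

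Records marked as tested, 14959 of 21540, entered, and a record was called at q < 0.05. For a symbol with several records the one with the highest mean FPKM was used, and lists took genes whose higher group value was at least 1 FPKM. GC content and length (12571 genes, 98.0%) came from the longest transcript in GENCODE M21, a later build, matched by Ensembl identifier, and medians of 10 GC by 10 length cells were subtracted. This subtraction and the adjustment were tested on simulated data. GC content and length were drawn independently there, and the simulated p-values carried no trend. What the subtraction does where GC content and length are linked was therefore not tested. Python 3.11.15, pandas and SciPy were used. The 10 genes and all lists were chosen with earlier results of these data known. Named were the 10 genes, up to 4 called genes per pathway list or else the gene with the smallest p, and up to 2 called genes per marker list; others are named as chosen after their values were seen. Genes of like pattern were not sought, since 2 group values give no pattern.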

Additional observations from a re-analysis of the deposited data

How the results depend on the processing

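The number of the 10 genes called was 1 at q < 0.05, 0 at q < 0.01, 1 at q < 0.1 and 4 at an unadjusted p under 0.05. It was 1 when the deposited p-values were adjusted again over all tested records (added after seeing the data), over those of at least 1 FPKM and over those of at least 5 FPKM. The adjusted p of Spred1 was 0.0305, 0.0265 and 0.0204 in that order. The deposited q of Spred1 implies about 18694 tests, more than any of these sets hold, and q < 0.1 is a looser mark. These settings therefore ease the call and are no check of it. With the GC and length trend removed the log2 fold change of Spred1 was 0.078 and the median of the 10 genes -0.084, the latter added after seeing the data. The log2 fold changes of the 10 genes were also taken under pseudocounts of 1 and 0.1, centring, rescaling without mitochondrially encoded genes and trend removal. Of these 50 values 40 stayed within 1.5 times of the deposited value. The other 10, of which 5 arose under trend removal, belong to Dusp4, Spred1, Spred2, Spry1 and Spry4. The sign changed for 0 of 50, but a pseudocount added to both groups cannot change a sign. The rescaling subtracted only -0.00056 from each value, so only centring and trend removal could have changed one. Without Spred1 the median was -0.13 (added after seeing the data), and over genes of at least 5 FPKM it was -0.13. No paired analysis was possible because the table holds 1 value per group; for the same reason leaving out single replicates was not run. Depth is unknown, so no detection limit can be given.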

Other observations

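A pair of genes of the pathway had large deposited differences without a small p, and both were picked after their values were seen. Braf, which encodes a Raf kinase that phosphorylates MEK, had 28.8 FPKM after saline and 48.7 FPKM after cocaine, a log2 fold change of 0.76 with p = 0.538 in the authors' deposited table. Flt1, an endothelial growth factor receptor, had 5.74 FPKM after saline and 3.83 FPKM after cocaine (log2 fold change -0.59, p = 0.146 in the authors' deposited table). Spred1 was called at a log2 fold change of 0.12, so size and p were not ordered alike in these records.

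The kinases of the JNK and p38 branches, which Dusp1 and Dusp4 also act on, numbered 10, of which 0 were called by the authors' deposited test and 0 had an unadjusted p under 0.05, with a median of 0.02. Mapk9, a JNK kinase, had the smallest p (53.5 FPKM after saline, 56.1 FPKM after cocaine, p = 0.155 by the authors' deposited test). Spred3, the Spred gene outside the 10, was picked after its values were seen and had 10.6 FPKM after saline and 11.1 FPKM after cocaine (log2 fold change 0.06, p = 0.366 in the authors' deposited table).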
